A study of Rattus norvegicus with 12 samples.

Results

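The genes encoding translation initiation and elongation factors were compared between the livers of EtOH and control rats. Members were taken by name: every listed transcript whose gene name begins with Eif or Eef followed by a digit, as long as any liver had it above 0 RPKM. Of 88 such transcripts listed, 78 were above 0, and the row with the highest mean RPKM was kept for each gene, leaving 58 genes of 15270 gene names detected. RPKM scales reads to transcript length and to the mapped reads of a library, so levels can be compared between genes. The prefix Eif also takes in 3 Eif2ak kinases, 3 Eif4ebp inhibitors and 4 Argonautes named Eif2c1 to Eif2c4, which are described apart from the remaining 48 genes. These 48 are not all factors themselves: the elongation group holds Eef2k, the gene of eEF2 kinase, and the eIF4 group the pseudogene name Eif4g2-ps1. Other factor genes, among them Eif4g1, Eif4a3, Eif3f, Eif2b3 and Eif2ak2, were not matched by name and are not analysed here.

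Both groups were females of iP10a, an inbred strain derived from alcohol-preferring rats, studied over 23 weeks and aged 38 weeks at the end (39 weeks for 1 animal). The 6 EtOH animals chose freely between water and bottles of 10%, 20% and 30% ethanol (v/v), and the 6 controls had water only. Being 1 inbred strain and 1 sex, the animals do not sample the genetic range of rats. One poly(A) RNA library was sequenced per liver, and the reads recovered from the RPKM steps numbered 2610238 to 4318141 in control and 3945593 to 6030028 in EtOH livers (two-sided exact permutation test, p = 0.011), so EtOH values carry less counting error. The tissue label held: the 7 hepatocyte markers found summed to 86800 to 115100 RPKM in control and 95830 to 121800 RPKM in EtOH livers, while muscle markers summed to at most 0.957 RPKM with Ckm at 0. The summed RPKM of 6 of 6 stellate cell markers ran from 19.8 to 29.2 in control and from 28.1 to 41.2 in EtOH livers, and that of 5 Kupffer cell markers from 108 to 164.6 and from 144.1 to 175.2. The part of these cells in the results was not tested, and in bulk liver RNA fewer cells of a type and less RNA per cell cannot be told apart.

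Translation starts when eIF2 brings the initiator tRNA to the small ribosomal subunit, eIF3 and the small factors eIF1 and eIF1A hold the complex open, and the eIF4 group loads it at the mRNA cap and unwinds the leader. The GTP on eIF2 is spent in each round and renewed by eIF2B. Phosphorylation of eIF2 by the Eif2ak kinases and capture of eIF4E by the Eif4ebp proteins are the best known brakes on these steps, and in the liver both respond to amino acids, insulin and stress. Elongation factors then deliver each aminoacyl-tRNA and move the ribosome along.

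Differences were measured as log2 fold changes, EtOH against control, on quantile-normalized log2 of RPKM plus 0.5, which understates the change of low transcripts. Levels, their means and SD are RPKM as deposited, so a log2 fold change can differ from the ratio of the means printed beside it, even in sign. The limma test with Benjamini-Hochberg adjustment was run over all 21718 transcripts above 0, and calls were made below an adjusted p of 0.05. Of the 58 genes, 2 were called lower and 2 higher in EtOH livers, or 6.90% of members against 2.42% of all transcripts tested (1.29% lower and 1.13% higher). Abundant transcripts were called more often. Among the 41 members with a mean of at least 10 RPKM, 4 were called (9.76%), close to the 8.57% of all transcripts at that level, so the number of calls did not set the members apart. Over all 58 genes the median log2 fold change was -0.06, with 34 below 0 and 24 above, beside a median of 0.0002 and 49.96% below 0 over all transcripts tested. An unadjusted p below 0.05 was found for 15 genes with lower and 5 with higher values, which is 20 of 58, where 15.5% of all transcripts passed. That share covers transcripts of every level, whereas all 20 had a mean of at least 1 RPKM and 16 of at least 10 RPKM. It was not matched for level, so whether the 20 set the members apart was not tested. The directions depended on the scaling between livers: on values as deposited, 11 members were called lower and 0 higher (2.98% and 0.58% of all transcripts). All 11 had a mean of at least 10 RPKM, and these shares were not matched for level either. With median scaling 6 and 2 members were called lower and higher (1.55% and 0.893% of all transcripts). Near the threshold, voom on recovered reads called Eif2s1 (adjusted p = 0.031), Eif3c (0.043) and Eif1a (0.047) beside the 4 called genes, and no others of the 58. With the RPKM of all rows of a gene summed, limma called these 3 (0.028, 0.035 and 0.035) and Eif2b5 (0.044) beside the same 4. Without any scaling the median over transcripts of at least 1 RPKM was already -0.08.

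**Figure D1:**
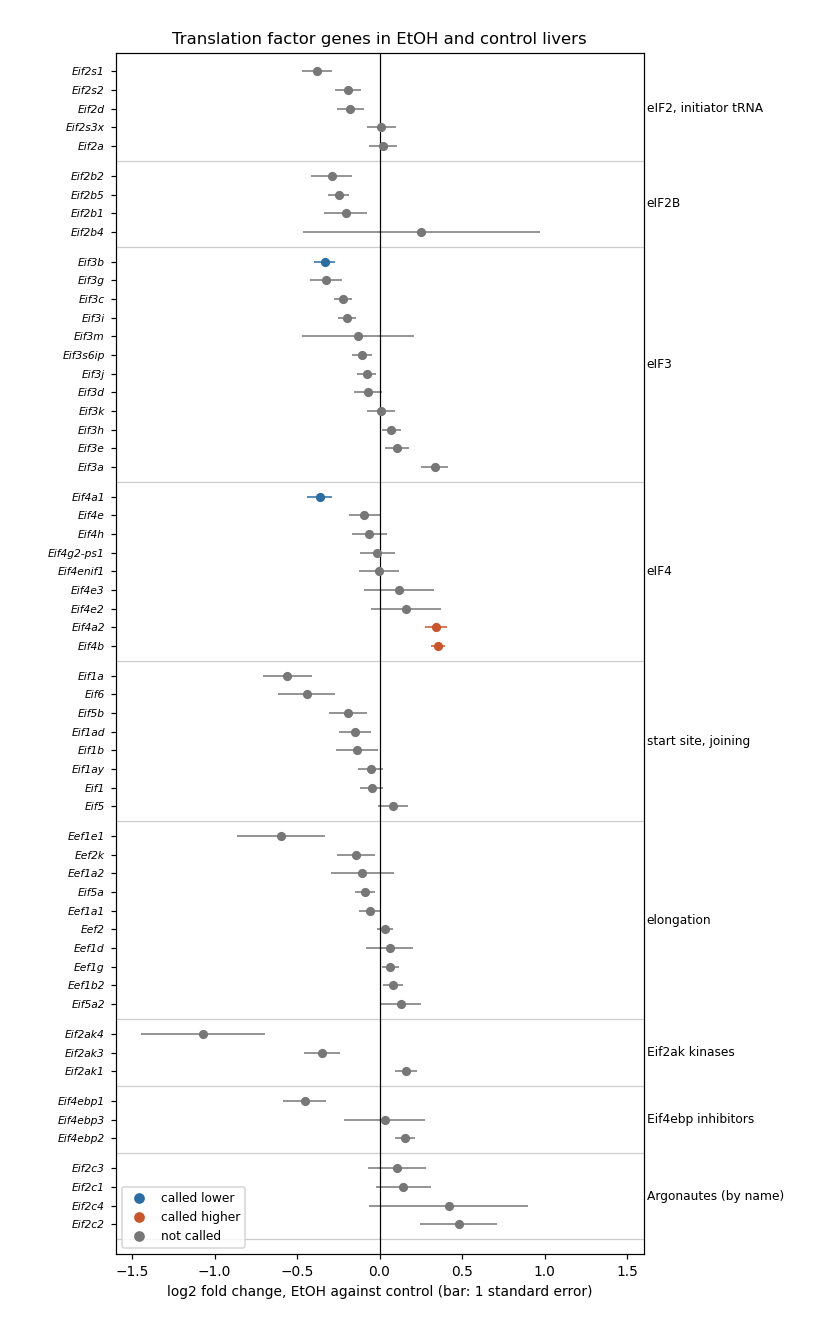
Log2 fold change of EtOH against control livers (x axis) for the 58 genes, arranged by role, each point with a bar of 1 standard error from limma; colours mark the 2 genes called lower, the 2 called higher and the 54 not called. The called genes lie in the eIF3 and eIF4 groups at -0.33, -0.36, 0.34 and 0.35, and the members of the elongation group with the highest levels lie near 0.

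The eIF4 group held 3 of the 4 calls, and its paralogous helicases went in opposite directions. Eif4a1 and Eif4a2 encode closely related forms of the RNA helicase eIF4A, which unwinds mRNA leaders. Eif4a1 (chr10:56484232-56489739, as the authors list it) had 96.8, 114.6 and 123.7 RPKM as the lowest, median and highest control and 70.2, 77.9 and 90.1 RPKM in EtOH livers. As deposited the groups had no value in common, all EtOH livers lying under the lowest control, but after the quantile step they overlapped. The means were 112.4 ± 10.8 and 78.2 ± 6.91 RPKM (SD, n = 6 each), 1.44-fold lower with EtOH. The log2 fold change was -0.36 with a standard error (SE) of 0.08 (limma, adjusted p = 0.032). This call was lost without any one of 9 livers (control 1, 3, 4 or 5, or EtOH 2, 3, 4, 5 or 6), with limma adjusted p values of 0.055 to 0.068, and also without the mean-variance trend (0.057) or on square-root values with a pooled error term (0.056).

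Eif4a2 (chr11:79950593-79957185) had 86.0, 93.2 and 100 RPKM in control and 93.8, 105.2 and 129.5 RPKM in EtOH livers. The groups overlapped, with 3 EtOH livers above the highest control. The means were 92.9 ± 4.55 and 106.7 ± 13.3 RPKM (SD, n = 6 each), and the log2 fold change was 0.34 with a standard error of 0.07 (limma, adjusted p = 0.023). The call was lost on values as deposited (log2 fold change 0.19, limma adjusted p = 0.20), and also without control 2 (0.051) or EtOH 3 (0.053). Between 509 and 1399 reads per liver lay behind the values of Eif4a2, and between 599 and 951 behind those of Eif4a1.

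The ratio of Eif4a1 to Eif4a2 within a liver does not depend on scaling between livers. It was 1.09 at the lowest, 1.22 at the median and 1.35 at the highest in control livers, and 0.598, 0.714 and 0.96 in EtOH livers. In all 6 controls Eif4a1 thus stood above Eif4a2, and in all 6 EtOH livers below it, with means of 1.21 ± 0.0919 and 0.744 ± 0.129 (SD). The pair was chosen after the values were seen, so no test was made of this ratio.

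The sequences around the annotated starts of this pair are shown because the helicases went apart, although they are read from RefSeq's GRCr8 build and not from the unnamed build of the deposited positions. Each runs 5′ to 3′ on the minus strand over 60 bases before the start, in lower case, and the first 10 transcribed bases, in capitals, at chr10:54888593-54888662 for Eif4a1 and chr11:91275314-91275383 for Eif4a2.
Eif4a1: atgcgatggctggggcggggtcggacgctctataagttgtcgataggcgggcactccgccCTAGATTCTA
Eif4a2: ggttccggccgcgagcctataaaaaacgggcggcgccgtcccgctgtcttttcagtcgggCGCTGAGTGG

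Eif4b, at chr7:140814663-140836482, encodes the cofactor that stimulates eIF4A and had the smallest p of all members. Control livers had 58.1, 60.5 and 68.3 RPKM as lowest, median and highest, and EtOH livers had 65.6, 71.8 and 74.6 RPKM. Of the EtOH livers, 4 were above the highest control, and after the quantile step all 6 were. The means were 62.1 ± 3.82 and 70.9 ± 3.66 RPKM (SD, n = 6 each), and the log2 fold change on normalized values was 0.35 with a standard error of 0.04 (limma, adjusted p = 0.0019). The call was kept without any one liver, the highest adjusted p being 0.0080 (limma), and was lost on values as deposited (log2 fold change 0.19, limma adjusted p = 0.069).

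**Figure D2:**
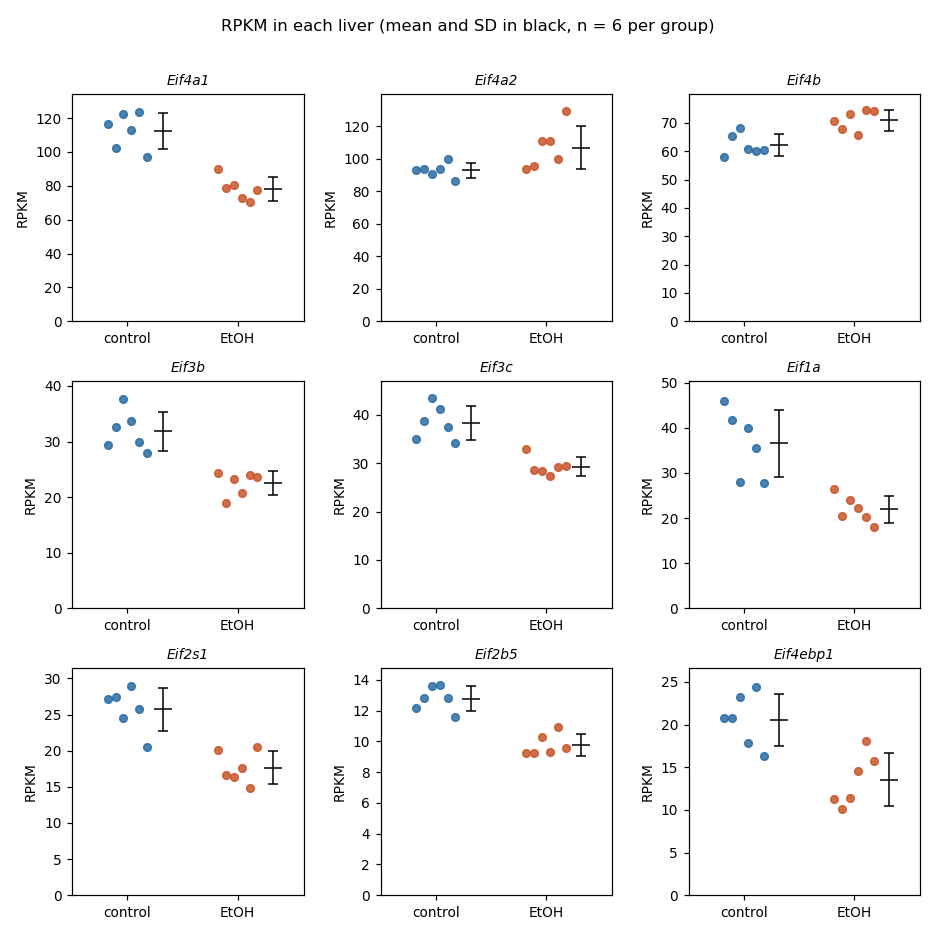
RPKM of 9 members in each liver (y axis from 0), with controls in blue, EtOH livers in orange and the mean and SD (n = 6) in black. Eif4a1, Eif3b, Eif3c, Eif1a and Eif2b5 show no overlap between groups, with EtOH lower, while Eif4a2 and Eif4b lie higher in EtOH livers with overlapping ranges.

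The other 6 members of the eIF4 group were not called, and their log2 fold changes ran from -0.09 to 0.16. Eif4e, the cap-binding protein, had 18.6 ± 1.24 RPKM in control and 15.7 ± 1.87 RPKM in EtOH livers (SD, n = 6 each), and its log2 fold change was -0.09 (SE 0.09, limma adjusted p = 0.65). Eif4g2-ps1 carries a pseudogene name and spans only 2722 bases, so its 25.6 and 22.8 RPKM may hold reads of its parent gene.

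Among the 12 eIF3 subunits, 1 was called. Eif3b, at chr12:14666976-14692129, encodes a core scaffold subunit and had 27.9, 31.3 and 37.6 RPKM in control against 19.0, 23.4 and 24.4 RPKM in EtOH livers (lowest, median and highest). The groups did not overlap, with means of 31.9 ± 3.54 and 22.5 ± 2.17 RPKM (SD, n = 6 each), 1.42-fold lower with EtOH. The log2 fold change was -0.33 with a standard error of 0.06 (limma, adjusted p = 0.021), and the call was kept without any one liver (highest limma adjusted p = 0.049). From 243 to 454 reads per liver lay behind it.

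The deposited RPKM of 4 further eIF3 subunits lay lower in every EtOH liver than in every control. Eif3c, which forms the core of the complex with Eif3a, had 38.4 ± 3.56 and 29.3 ± 1.94 RPKM (SD, n = 6 each), a log2 fold change of -0.22 with a standard error of 0.05 (limma, adjusted p = 0.054). With a liver left out, that p ran from 0.027 (without EtOH 1) to 0.11. Eif3g had a log2 fold change of -0.32 (limma, adjusted p = 0.10), Eif3i of -0.20 (0.096) and Eif3j of -0.08 (0.58). The listed Eif3i row spans 987 bases on a chromosome other than that of the RefSeq gene, so its reads may be shared with a copy elsewhere in the genome. Across all 58 genes, 8 had EtOH values wholly below control values (Eif2b5, Eif3b, Eif3c, Eif3g, Eif3i, Eif3j, Eif4a1 and Eif1a), and 0 wholly above, beside 2.43% and 0.677% of all transcripts. Each of the 8 had a mean of at least 10 RPKM, and among all transcripts at that level 9.56% were wholly below, beside these 8 of 41 members. After the quantile step 3 remained wholly below (Eif2b5, Eif3b and Eif3i), and Eif4a2 and Eif4b were wholly above.

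Eif3a, the largest subunit, differed from Eif3b in direction without passing the test. It had 29.8, 34.9 and 43.6 RPKM in control and 37.2, 39.0 and 44.7 RPKM in EtOH livers, with only 1 EtOH liver above the highest control. Its log2 fold change was 0.33 with a standard error of 0.08 (limma, adjusted p = 0.061), and with a liver left out the adjusted p ran from 0.027 (without control 5) to 0.13. The value was 0.18 on values as deposited (limma, adjusted p = 0.32) and 0.25 with both rows of the gene summed (0.20). The ratio of Eif3b to Eif3a within a liver was 0.687 to 1.19 in control livers and 0.460 to 0.656 in EtOH livers. This pair, too, was chosen after its values were seen, so that the ranges do not overlap restates the choice and was not tested. Eif3h, the most abundant subunit at 90 ± 9.35 and 85.4 ± 6.06 RPKM (SD, n = 6 each), had a log2 fold change of 0.07 (standard error 0.06, limma adjusted p = 0.63), and of -0.07 on values as deposited. The Eif3m row differed between animals rather than groups: control 1, control 4 and EtOH 2 had 43.4, 53.5 and 42.2 RPKM and the other 9 livers 17.0 to 20.1 RPKM. That row is 1 of 3 listed for Eif3m and holds 48.9% of its RPKM, and with the rows of each gene summed the log2 fold change of Eif3m was 0.06 (limma, adjusted p = 0.64).

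**Figure D3:**
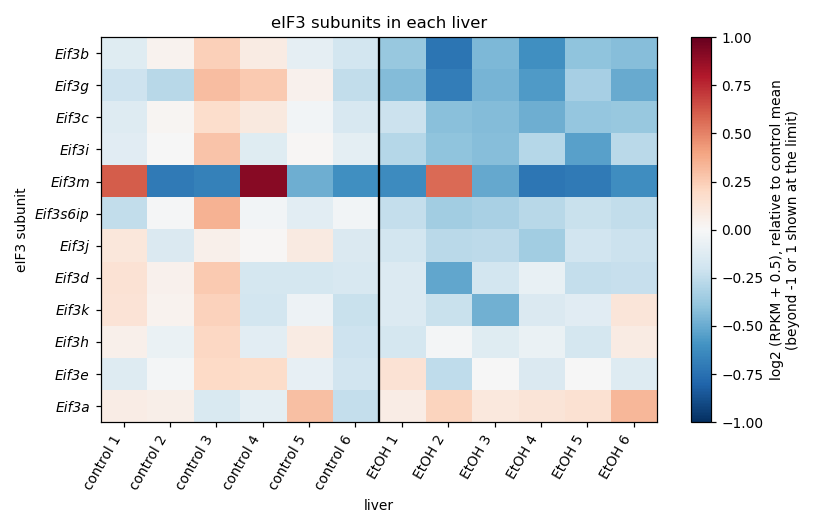
Log2 of RPKM plus 0.5 of the 12 eIF3 subunits (rows) in each of the 12 livers (columns, controls left of the line), relative to the mean of the controls; red is higher and blue lower, on a scale that stops at -1 and 1. Values are as deposited, where 11 of the 12 log2 fold changes were below 0, against 8 after the quantile step. Eif3b, Eif3g, Eif3c, Eif3i, Eif3j, Eif3d and Eif3s6ip are blue in all 6 EtOH livers, and Eif3a is red in all 6. Eif3m is red in control 1, control 4 and EtOH 2 alone.

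Of the genes for eIF2 and other carriers of initiator tRNA, 0 of 5 were called, with 2 at an unadjusted limma p below 0.05. Eif2s1 encodes the alpha subunit, the one that the Eif2ak kinases phosphorylate. It had 20.5, 26.4 and 28.9 RPKM in control and 14.8, 17.1 and 20.5 RPKM in EtOH livers, the highest EtOH liver lying just above the lowest control. Its means were 25.7 ± 2.96 and 17.7 ± 2.22 RPKM (SD, n = 6 each). The log2 fold change was -0.38 on normalized values with a standard error of 0.09 (limma, adjusted p = 0.052) and -0.53 on values as deposited. With a liver left out, the adjusted p ran from 0.030 (without control 6) to 0.11. Eif2s2, the beta subunit, had 55.5 ± 5.25 and 43.2 ± 4.97 RPKM (SD, n = 6 each) and a log2 fold change of -0.19 with a standard error of 0.08 (limma, adjusted p = 0.26). Eif2s3x, the gamma subunit that binds GTP, had a log2 fold change of 0.009 (limma, adjusted p = 0.97). The 3 subunits of 1 complex thus had values of -0.38, -0.19 and 0.009 after the quantile step, and of -0.53, -0.36 and -0.15 as deposited. The sign for Eif2s3x was not stable, being below 0 also with median scaling (-0.06) and by voom (-0.04).

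Of the 4 eIF2B genes, 0 were called, with 2 at an unadjusted limma p below 0.05. Eif2b5, the catalytic epsilon subunit that reloads eIF2 with GTP, had 11.6, 12.8 and 13.7 RPKM in control and 9.21, 9.44 and 10.9 RPKM in EtOH livers, without overlap on deposited or normalized values. The means were 12.8 ± 0.812 and 9.76 ± 0.695 RPKM (SD, n = 6 each), and the log2 fold change was -0.25 with a standard error of 0.06 (limma, adjusted p = 0.070). Eif2b1 and Eif2b2 had -0.21 and -0.29. The Eif2b4 row, at 0 RPKM in control 1 and up to 14.1 RPKM in other controls, had 0.25 with a standard error of 0.72. That sign rested on control 1, since the value was -0.49 without it, and it was -0.16 with both rows of the gene summed.

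Of the 8 genes for start site selection and subunit joining 0 were called, with 2 at an unadjusted limma p below 0.05, and 7 of 8 log2 fold changes were below 0. Eif1a encodes eIF1A, which with eIF1 scans for the start codon. Its levels of 27.7, 37.8 and 46.1 RPKM in control and 18, 21.3 and 26.5 RPKM in EtOH livers did not overlap, and its means of 36.5 ± 7.51 and 21.9 ± 3.05 RPKM (SD, n = 6 each) lay 1.67-fold apart. After the quantile step the groups overlapped. The log2 fold change of -0.56 had a standard error of 0.15 and a limma adjusted p of 0.072, which ran from 0.037 (without control 3) to 0.14 with a liver left out. The table also lists Eif1ay, a synonym of the X-linked Eif1ax in RefSeq, at 11.6 ± 1.41 and 10.2 ± 0.78 RPKM (n = 6 each, SD; log2 change -0.05, limma adjusted p = 0.76). Reads of such near copies can be split by the counting, and the Eif1a to Eif1ay ratio of 2.42 to 4.13 in control overlapped with 1.63 to 2.75 in EtOH livers. Eif1, the most abundant initiation factor, had 144.8 ± 16.5 and 125.0 ± 9.68 RPKM (SD, n = 6 each) and a log2 fold change of -0.05 (standard error 0.07, limma adjusted p = 0.77). Eif6, which keeps the large subunit apart until joining, had -0.44 with a standard error of 0.17 (limma, adjusted p = 0.23), from a row of 738 bases on another chromosome than the RefSeq gene.

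Of the 10 elongation genes, which include the most abundant factors, 0 were called, with 1 at an unadjusted limma p below 0.05. Eef1a1, which delivers aminoacyl-tRNA, had 2288, 2484 and 2862 RPKM in control and 2424, 2517 and 2764 RPKM in EtOH livers. The EtOH range lay within the control range, and the means were 2527 ± 211 and 2542 ± 126 RPKM (SD, n = 6 each). The log2 fold change was -0.06 on normalized values with a standard error of 0.07 (limma, adjusted p = 0.69), 0.01 on values as deposited and 0.10 with median scaling. Eef1a1 alone made up 48.6% to 51.3% of the summed RPKM of the 58 genes in control livers and 51.2% to 52.9% in EtOH livers. Eef2, the translocase, was next with 637.9 ± 64.4 and 653.3 ± 18.1 RPKM (SD, n = 6 each) and a log2 fold change of 0.04 (standard error 0.05, limma adjusted p = 0.75). Eef1g, a subunit of the exchange factor for eEF1A, had 165.9 ± 15.7 and 156.3 ± 10.1 RPKM. Eif5a, which relieves stalled ribosomes, had 111.9 ± 17.0 and 94.1 ± 7.06 RPKM (log2 fold change -0.09, limma adjusted p = 0.56). The smallest p in this group was that of Eef1e1, a component of the multi-synthetase complex, at 2.92 ± 0.951 and 1.79 ± 0.749 RPKM (SD, n = 6 each) from 6 to 46 reads per liver (log2 fold change -0.60, standard error 0.27, limma adjusted p = 0.31). Eef1a2, the muscle and brain form, had 0 to 5 reads per liver. For Eif5a2 1 read was found in 1 EtOH liver and 0 in the other 11, where a count of 0 allows up to 3 reads in a library by counting error alone.

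Summed over the 38 initiation factor genes, control livers had 1232 to 1486 RPKM (1369 ± 86.2, SD, n = 6) and EtOH livers 1151 to 1267 RPKM (1189 ± 44.9, SD, n = 6). The eIF2 group had 140.4 to 158.3 RPKM in control and 116.6 to 130.0 RPKM in EtOH livers, with no overlap, and the eIF3 group 424.5 to 546.4 and 406.8 to 439.9 RPKM, with overlap. The 10 elongation genes summed to 3565 ± 314 and 3560 ± 154 RPKM (SD, n = 6 each). These sums are on values as deposited, where the median log2 fold change over transcripts of at least 1 RPKM was -0.08. That figure does not measure the scaling shift of the members. The median of the 38 initiation factor genes was -0.24 as deposited and -0.085 after the quantile step. For the 5 genes of the eIF2 group it was -0.31 and -0.176, so part of these lower sums goes with the scaling. All 58 genes made up 0.866% to 0.991% of the listed RPKM in control and 0.888% to 0.982% in EtOH livers.

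**Figure D4:**
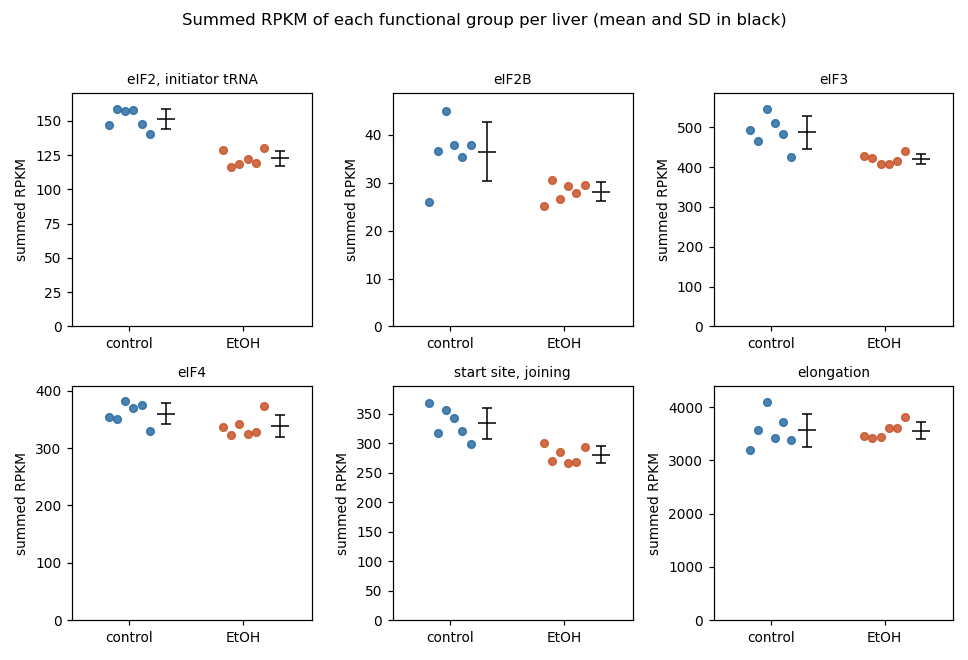
Summed RPKM, as deposited, of 6 functional groups in each liver (y axes from 0), with controls in blue, EtOH livers in orange and the mean and SD (n = 6) in black. The eIF2 sums do not overlap (140.4 to 158.3 and 116.6 to 130.0), and the elongation sums have near equal means of 3565 and 3560.

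Of the Eif2ak kinases, which phosphorylate eIF2 in response to stress, 0 of 3 were called and all 3 had an unadjusted limma p below 0.05. Eif2ak1, the heme-regulated kinase and the most abundant of them here, had 23.1 ± 1.78 and 23.1 ± 1.45 RPKM (n = 6 each, SD; log2 change 0.16, SE 0.07, limma adjusted p = 0.28). Its value rested on the quantile step, being 0.002 on values as deposited (limma, adjusted p = 0.99) and 0.09 with median scaling. Eif2ak3 encodes PERK, the kinase of the endoplasmic reticulum, and had 5.03, 6.85 and 8.5 RPKM in control and 4.10, 4.74 and 5.93 RPKM in EtOH livers. Of the EtOH livers, 5 lay below the lowest control (log2 fold change -0.35, standard error 0.11, limma adjusted p = 0.12). The row of Eif2ak4, which encodes the amino acid sensor GCN2, had 1.41, 2.48 and 3.95 RPKM in control and 0, 1.24 and 1.69 RPKM in EtOH livers, from 0 to 77 reads. Its log2 fold change was -1.07 with a standard error of 0.38 (limma, adjusted p = 0.18). That row holds 54.5% of the RPKM of the gene, and with both rows summed the value was -0.29 (limma, adjusted p = 0.14).

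Of the Eif4ebp inhibitors, which hold eIF4E away from the cap complex until phosphorylated by mTORC1, 0 of 3 were called, with 2 at an unadjusted limma p below 0.05. Eif4ebp1 had 16.3, 20.7 and 24.4 RPKM in control and 10.2, 13.0 and 18.1 RPKM in EtOH livers, with 5 EtOH livers below the lowest control. The means were 20.5 ± 3.07 and 13.5 ± 3.09 RPKM (SD, n = 6 each). On normalized values the log2 fold change was -0.45 with a standard error of 0.13 (limma, adjusted p = 0.098) and -0.60 on values as deposited (0.039). With a liver left out, the adjusted p ran from 0.043 (without EtOH 5) to 0.19. Eif4ebp2, the more abundant form, had 58.1 ± 6.99 and 57.4 ± 3.74 RPKM (SD, n = 6 each), with a log2 fold change of 0.16 (standard error 0.06, limma adjusted p = 0.21) that was -0.01 on values as deposited. Eif4ebp3 had 9.26 ± 3.46 and 8.71 ± 3.22 RPKM (n = 6 each, SD; log2 change 0.03, SE 0.25, limma adjusted p = 0.96). The Eif4ebp1 to Eif4e ratio ran from 0.911 to 1.32 in control livers, while in EtOH livers 3 values lay between 0.615 and 0.692 and 3 between 1.07 and 1.19.

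**Figure D5:**
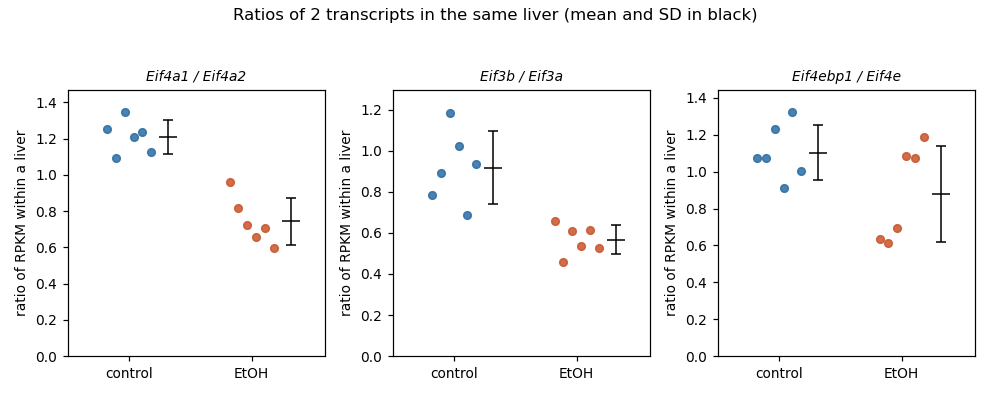
Ratio of the RPKM of 2 genes in the same liver (y axes from 0), with controls in blue, EtOH livers in orange and the mean and SD in black. Eif4a1 to Eif4a2 (1.09 to 1.35 and 0.598 to 0.96) and Eif3b to Eif3a, pairs chosen after their values were seen, do not overlap between groups, whereas Eif4ebp1 to Eif4e does.

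The Argonautes, carriers of small RNAs whose older names begin with Eif2c, all had log2 fold changes above 0, and 0 of 4 were called or had an unadjusted limma p below 0.05. Eif2c2 (Ago2) had the smallest p, with 1.71 ± 0.704 and 2.55 ± 0.985 RPKM (n = 6 each, SD; log2 change 0.48, SE 0.24, limma adjusted p = 0.36) from 9 to 52 reads per liver. Eif2c1 (Ago1), the most abundant, had 2.69 ± 0.895 and 2.84 ± 0.274 RPKM (n = 6 each, SD; log2 change 0.15, limma adjusted p = 0.69).

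Many mRNAs of the translation machinery begin with a 5′ terminal oligopyrimidine tract, through which mTORC1 controls their translation. Of 9 listed factor genes known for such a tract, 8 were tested, and 1 (Eif4b) was called (12.5%). All 8 had a mean of at least 15.8 RPKM, and of all transcripts of at least 10 RPKM 8.57% were called. Their log2 fold changes after the quantile step ran from -0.06 to 0.35 with a median of 0.07, and apart from Eif4b none exceeded 0.11. On values as deposited the median was -0.06, with 5 of the 8 below 0 and 0 called.

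The E-box CACGTG, a palindrome that reads the same on both strands and is bound by MYC and related factors, was looked for in the RefSeq promoters (GRCr8, 250 bases before to 50 after the start). Of 48 members with 1 promoter in that table, 9 hold it (18.8%): Eef2, Eef2k, Eif1b, Eif3a, Eif3b, Eif4e, Eif4h, Eif5a and Eif5a2. It is held by 6.42% of all 33469 promoters and by 7.02% of the 21851 of protein-coding genes. Of the 9, Eif3b was called, and the promoters of Eif4a1 and Eif4a2 do not hold these letters in that window. The 30 bases around the E-box, in capitals, are given for a called subunit, the cap-binding protein and the translocase, whose E-boxes shown lie 57, 80 and 76 bases before the annotated start, at chr12:19334808-19334837 (minus strand), chr2:229740661-229740690 (plus strand) and chr7:9189297-9189326 (minus strand). Eif4e holds 2 E-boxes, and the one nearer its start is shown.
Eif3b: actcgctgcacgCACGTGgctccgcgctag
Eif4e: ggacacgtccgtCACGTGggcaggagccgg
Eef2: cacccgcgccgtCACGTGacgtgcccaacc

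Further genes of the pathway, outside the members, were given by lists. Of 57 genes in 9 lists, 40 were tested, and limma called 1 lower and 0 higher (voom 1 in all), beside 2.42% of all transcripts tested. The 1 call in 40 is thus near the share over all transcripts. For 12 of the 40 the unadjusted limma p was below 0.05, beside 15.5% of all transcripts, a share not matched for level. There were 22 log2 fold changes below 0 and 18 above. The called gene was Dph1, of the diphthamide pathway that modifies eEF2, at 2.71 to 4.55 RPKM in control and 1.27 to 2.13 RPKM in EtOH livers with no overlap (log2 fold change -0.77, SE 0.15, limma adjusted p = 0.025). Only 10 to 17 reads per control liver and 6 to 13 per EtOH liver lay behind it. The call was lost with the animal number as a block (limma adjusted p = 0.12). The other 4 tested genes of that pathway were not called by limma over all transcripts, and voom called none but Dph1 in any list. Among the 4, Dph5 had a log2 fold change of -0.81 (limma adjusted p = 0.058), with 5 EtOH livers below the lowest control. Limma called Dph5 on values as deposited (0.035), at a mean RPKM of at least 1 (0.026) and with summed rows (0.029). It was not called with median scaling (0.055) or by voom (0.072). Of the poly(A)-binding proteins and their partners, among them the inhibitor Paip2, 0 of 4 were called and 3 had an unadjusted p below 0.05, and Paip2 had the smallest p (log2 fold change 0.34, limma adjusted p = 0.052). The 2 enzymes that make the hypusine of eIF5A gave 0 calls and 1 unadjusted p below 0.05 (Dohh, log2 fold change -0.32, limma adjusted p = 0.078). Of mTORC1, its regulators and its kinases, 0 of 7 were called and 3 had an unadjusted p below 0.05, Tsc1 having the smallest p (0.41, limma adjusted p = 0.089). The other 2 had values below 0, Rps6kb2 of -0.35 (limma, adjusted p = 0.10) and Akt1s1 of -0.27 (0.12), and 5 of the 7 values were below 0, with a median of -0.27. Of these 5, Tsc2 at -0.42 and Rps6kb1 at -0.003 were at 0.06 and 0.03 with the rows of each gene summed. Of the partners and phosphatase subunits that act on eIF2, 0 of 5 were called or had an unadjusted p below 0.05, Nck1 having the smallest p (-0.27, limma adjusted p = 0.34). Of the other initiation cofactors 0 of 7 were called or had an unadjusted p below 0.05, Abcf1 having the smallest p (-0.16, limma adjusted p = 0.38).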

How the data were processed

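Poly(A) RNA of 12 livers was sequenced as 101-nucleotide pairs, barcoded and pooled in 1 lane. The authors mapped reads with CLCbio Genomics Workbench 4.9 and deposited RPKM per transcript and liver. Build and annotation are not given in the sources used here. Their own fold changes, test statistics, p values and FDR, also deposited, were not used. The table lists 34391 transcripts, of which 21718 were above 0.

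Log2(RPKM + 0.5) was quantile normalized and compared by limma 3.58.1 (R 4.3.3) with a mean-variance trend, 6 against 6, two-sided, Benjamini-Hochberg over all transcripts. The authors tested square-root values; that test was an alternative, with other pseudocounts, scalings and filters, no trend, an animal block, voom on recovered reads, summed rows and each liver left out. Whole reads were recovered for all rows (within 0.01 read). Same-numbered animals did not deviate together (correlations -0.07 to 0.03). The procedure was tested on simulated data. Other steps used Python 3.11.15 with scipy 1.17.1, pandas 2.3.3, numpy 2.4.6 and matplotlib 3.10.9.

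Members, lists and tests were chosen with earlier results of these data known. Named with values are called members, the smallest p and highest level in each role, all kinases and inhibitors, and 5 members of the study's list, which was itself chosen on these animals. Others were named after their values were seen (Eif2s3x, Eif3a, Eif3m, Eif4e, Eif6 and members without overlap). Also outside these rules are Eef2, Eef1g, Eif5a, Eef1a2, Eif5a2, Eif1ay, Eif2b1, Eif2b2, Eif2b4 and Eif4g2-ps1. Names were matched to RefSeq, and 56 of 58 lay on the same chromosome (96.6%).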

Additional observations from a re-analysis of the deposited data

Results flagged for a closer look

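In groups of 6 livers, the gap of the highest or lowest sample was compared with the range of the group. This covered 42 groups, the control and EtOH livers of 21 named genes only, and 2 stood apart, where chance flags about 1 in 20. Members outside this screen also held livers far from the rest. Eef1d had 28.6 RPKM in control 3 beside 13.1 to 15.9 RPKM in the other controls. Eif2s3x had 23.2 RPKM in EtOH 3 beside 31.8 to 33.8 RPKM in the other EtOH livers. Within the screen, the 2 were as follows. Eif2ak1 had 26.4 RPKM in control 5, above the 21.7 to 23.4 RPKM of the other controls. Eif2ak3 had 5.93 RPKM in EtOH 4, above the 4.10 to 4.77 RPKM of the other EtOH livers.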

How the results depend on the processing

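The calls over all transcripts (526) became 322 on square-root values with a pooled error term, 860 at a mean RPKM of at least 1, 977 with RPKM summed per gene and 113 with the animal number as a replicate block, and ran from 212 to 656 with a liver left out (275 without control 2, 285 without control 4, 212 without EtOH 2, 252 without EtOH 3, 295 without EtOH 4 and 298 without EtOH 5). Calls among members (4, of which 2 lower and 2 higher) became 11 without normalization (11 lower, 0 higher), 8 with median scaling (6 lower, 2.44% of all transcripts), 7 at a mean RPKM of at least 0.1 (4 lower, 3.81%), 8 at a mean of at least 1 (5 lower, 7.76%), 7 by voom on recovered reads (5 lower, 2.41%), 8 with summed rows (6 lower, 6.4%) and 1 with the replicate block (0 lower, 1 higher, 0.52%). Lower calls were 1 on square-root values and 1 without a trend. With a liver left out, member calls ran from 2 (without EtOH 3) to 5, lower calls from 1 to 3 and higher calls from 1 to 3. The cause of these shifts was not tested.

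The animal numbers do not pair the samples, and only control 1 deviated most like its own number. With the block, Eif4b kept its call, and Eif3b (limma adjusted p = 0.11), Eif4a1 (0.10) and Eif4a2 (0.12) lost it. Over 21 named genes and all alternatives, 426 of 483 differences kept direction and side of the threshold, 18 of 4 genes lost it, 27 of 6 genes gained it and 12 of 5 genes changed sign, none of them called. The log2 fold change became 0.0109 (no normalization) and 0.103 (median scaling) for Eef1a1, and without normalization -0.0725 for Eif3h, -0.0107 for Eif4ebp2 and -0.0833 for Eif4ebp3. For Eif4ebp3 it was also -0.0325 by voom. With a liver left out it ran from -0.0942 to 0.149 for Eif4ebp3 and from -0.081 to 0.0021 for Eif1, which was above 0 without control 1. Members with a mean RPKM of at least 1 numbered 54. Rows with few reads, such as those of Eif2ak4 and the Argonautes, limit what could be called.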

Other observations

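Of the genes that end translation and recycle ribosomes, 0 of 3 were called by limma or by voom on recovered reads and 2 had an unadjusted limma p below 0.05, and Gspt1, the release factor GTPase, had the smallest p. Its 32.1 to 38 RPKM in control livers lay wholly above the 22.7 to 30.9 RPKM of EtOH livers. After the quantile step the groups overlapped (log2 fold change -0.18, SE 0.06, limma adjusted p = 0.14). Mitochondrial translation factors gave 0 calls and 0 unadjusted p values below 0.05 among 5, with log2 fold changes from -0.22 to 0.04, and Mtif2 had the smallest p (-0.12, limma adjusted p = 0.70). Of 2 genes for selenocysteine incorporation 0 were called and 1 had an unadjusted p below 0.05, and Eefsec, its elongation factor, had 8.05 ± 0.623 and 6.03 ± 1.03 RPKM (n = 6 each, SD; log2 change -0.29, limma adjusted p = 0.18).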
